A study of Mus musculus with 9 samples.

Results

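Gene expression of the interleukin-1 (IL-1) family was examined in cultured mouse synovial fibroblasts (SFs), the mesenchymal cells that line the joint. The set consisted of 10 genes, taken by their symbols from both deposited tables, out of 49548 genes in all. It held the ligands Il1a, Il1b, Il33 and Il18, the antagonists Il1rn and Il18bp, and the receptors Il1r1, Il1r2, Il1rl1 and Il1rap. The family was followed through 9 libraries of SFs from ankle joints of 8-week-old mice, made with a 3′ mRNA sequencing kit that reads the end of each transcript. Of these, 3 libraries came from wild-type (WT) SFs with no treatment, 3 from SFs of hTNFtg mice, which carry a human TNF transgene, with no treatment, and 3 from hTNFtg SFs given 1 µg/mL of infliximab, an antibody against human TNF, over 48 hours. The methods describe vehicle for the untreated SFs, the mice were on a mixed CBA and C57BL/6J background, and CD45+ cells were depleted from all cultures at passage 1. The promoter of the transgene and the number of mice behind each culture are not given in the sources used here. The methods call the 3 libraries of a group biological replicates, and the labels do not say which animals they came from.

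Members of the IL-1 family signal through paired receptors. IL-1α (Il1a) and IL-1β (Il1b) bind IL-1R1 (Il1r1), which then recruits the shared coreceptor IL-1RAcP (Il1rap) and engages MyD88 and IRAK kinases, leading to NF-κB activation. The receptor antagonist IL-1Ra (Il1rn) occupies IL-1R1 without signaling, whereas IL-1R2 (Il1r2) is a decoy receptor. IL-33 (Il33) is an alarmin of the nucleus that signals through ST2 (Il1rl1) and the same coreceptor. IL-18 (Il18) is matured by caspase-1 and is neutralized by the secreted IL-18 binding protein (Il18bp). In joints, IL-1 drives synovial inflammation and cartilage breakdown, and a recombinant form of IL-1Ra is used as a drug in rheumatoid arthritis.

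Approximate reads per library ranged from 3828901 to 9016309 in 8 libraries and were 613343 in hTNFtg replicate 1. A single read was worth 6.23 normalized counts in that library, so that a floor of 3 reads stood at 18.7 there and between 1.60 and 3.31 elsewhere. All 11 fibroblast markers were at 143 normalized counts or more in every library, from Col1a1 (12251 to 23868) to Pdgfra (184 to 325). Of these, Pdpn was at 852 to 982 in WT and 1987 to 5582 in the hTNFtg groups, and Lum at 284 to 1158 and 143 to 254. The summed level of 15 macrophage and myeloid markers was 214 to 800 in WT, 3467 to 7939 in hTNFtg and 2310 to 4777 in infliximab-treated SFs, none of the 15 being at 0 in all libraries, and Lyz2, the highest of them, spanned 43 to 5356. The sum of 10 neutrophil markers was 46 to 57 in WT, 99 to 191 in hTNFtg and 97 to 114 in treated SFs, with S100a9, Ly6g, Ngp and Ltf at 0 in all libraries. That of 8 endothelial markers was 285 to 301, 112 to 243 and 184 to 238. Nearly all of the endothelial sum was Egfl7 (106 to 295). Tie1 was at 0 in all libraries, and Pecam1, Cdh5, Kdr, Tek, Emcn and Vwf were at 6 or less. Infliximab replicate 3 stood apart by liver genes, with a sum of 888 over 10 hepatocyte markers against 43 to 176 in the other libraries.

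According to the files, whose mm10 coordinates matched GENCODE M21 for all 10 genes, the receptor genes Il1r2 (chr1:40074079-40125231), Il1r1 (chr1:40225080-40317257) and Il1rl1 (chr1:40429570-40465415) follow each other on the plus strand of chromosome 1. Il1rn (chr2:24336853-24351494, plus strand), Il1b (chr2:129364570-129371139) and Il1a (chr2:129299610-129309972, both on the minus strand) lie on chromosome 2. The others are Il18 (chr9:50554827-50581840, plus), Il1rap (chr16:26581704-26730117, plus), Il33 (chr19:29925114-29960718, plus) and Il18bp (chr7:102014885-102018690, minus).

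Il1rn and Il1rl1 are the members on which the results turn, and each has alternative promoters. Their sequences are shown here from 250 bases before to 20 bases after the start site, from RefSeq on GRCm38.p6 and on the plus strand. The windows are chr2:24336610-24336879 and chr2:24345041-24345310 for Il1rn, and chr1:40429320-40429589 and chr1:40439379-40439648 for Il1rl1. Capitals mark matches to a motif described after the sequences.
Il1rn upstream promoter: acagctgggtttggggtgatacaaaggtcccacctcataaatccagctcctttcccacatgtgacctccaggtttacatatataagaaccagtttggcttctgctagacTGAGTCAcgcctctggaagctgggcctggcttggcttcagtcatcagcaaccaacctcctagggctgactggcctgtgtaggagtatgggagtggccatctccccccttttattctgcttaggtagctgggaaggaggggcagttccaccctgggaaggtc
Il1rn downstream promoter: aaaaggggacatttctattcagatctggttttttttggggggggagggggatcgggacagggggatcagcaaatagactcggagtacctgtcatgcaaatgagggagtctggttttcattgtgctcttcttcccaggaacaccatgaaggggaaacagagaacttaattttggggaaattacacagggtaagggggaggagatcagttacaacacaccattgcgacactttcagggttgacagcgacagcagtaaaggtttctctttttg
Il1rl1 distal promoter: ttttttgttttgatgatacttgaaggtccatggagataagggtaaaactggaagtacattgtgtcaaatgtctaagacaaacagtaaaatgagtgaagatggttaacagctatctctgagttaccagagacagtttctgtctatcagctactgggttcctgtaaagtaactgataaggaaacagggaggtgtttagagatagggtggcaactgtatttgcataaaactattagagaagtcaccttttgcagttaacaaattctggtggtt
Il1rl1 proximal promoter: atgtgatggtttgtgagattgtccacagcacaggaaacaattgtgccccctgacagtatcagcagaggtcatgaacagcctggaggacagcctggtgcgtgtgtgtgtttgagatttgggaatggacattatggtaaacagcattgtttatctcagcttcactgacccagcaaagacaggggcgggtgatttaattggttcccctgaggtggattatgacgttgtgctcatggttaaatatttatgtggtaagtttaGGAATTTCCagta

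All 10 members were matched by symbol to 15 promoter windows of 300 bases, which reach 50 bases past the start. The letters searched on both strands were TGANTCA for AP-1, GGNNTTTCC for NF-κB, TTCNNNGAA for STAT factors and TATAAA for the TATA box, and no matches overlapped each other. The AP-1 letters were found 141 bases before the start in the upstream Il1rn promoter and 12 bases before that of Il1a. Among 32851 mouse promoters 7.81% held them. The NF-κB letters, held by 5.82% of promoters, began 7 bases past the proximal start of Il1rl1 and 30 bases past the downstream start of Il1rn, beyond the stretch printed for that gene. The same match lies 50 bases before the start in another Il1rn window that overlaps the downstream one and is not printed. The STAT letters (8.30% of promoters) occurred in Il1r2 only, 111 bases before the start. The TATA box (13.6% of promoters) was matched in Il18, Il1a, Il1b, Il1rn and Il33, and stood 32, 31 and 29 bases before a start of Il1a, Il1b and Il33. The match in Il18 was 175 bases before the start, and that in the other Il33 window 203 bases before. In Il1rn it began 14 bases past the start, in the window that is not printed. These are matches of letters and say nothing of binding.

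To ask how chronic TNF exposure and its blockade relate to the family, hTNFtg SFs were compared with WT SFs, infliximab-treated with untreated hTNFtg SFs, and infliximab-treated hTNFtg with WT SFs. Genes were called by the cutoffs of the study, requiring an unadjusted P under 0.05 together with a change of at least 1 on the log2 scale, here with limma on log2(normalized count + 1). The added 1 shrinks fold changes of low genes. A 0 or a single read in hTNFtg replicate 1, the library with the fewest reads, can instead enlarge them. In hTNFtg versus WT SFs, 1 of 10 members was raised (Il1rl1) and 2 were lowered (Il1rn and Il18), where 3.35% of all genes tested were raised and 3.04% lowered. The groups did not overlap for 3 members, as for 11.4% of all genes, and 2 members had a Benjamini-Hochberg adjusted p under 0.05, as had 0.48% of genes. In infliximab-treated versus untreated hTNFtg SFs, limma called 0 of 10 members, against 1.49% of genes raised and 0.936% lowered. In that comparison 0 genes (0%) passed the adjusted p, although 1026 genes had an unadjusted P under 0.05 and edgeR, run on the approximate reads with its quasi-likelihood test, gave 165 genes with an adjusted p under 0.05. Of the members, 1 (Il1rl1) had an unadjusted P under 0.05 in limma and 0 passed edgeR's adjusted p. Groups did not overlap for 1 member, Il1rl1, compared with 7.44% of genes. In infliximab-treated hTNFtg versus WT SFs, Il1rl1 was raised and Il1rn lowered, at 3.86% and 2.95% of all genes. Here the adjusted p was under 0.05 for 2 members and 0.74% of genes, and groups did not overlap for 4 members (Il18, Il1rl1, Il1rn and Il33) and 14.2% of genes. Each group serves in a pair of these comparisons, so they are not independent of each other.

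**Figure D1:**
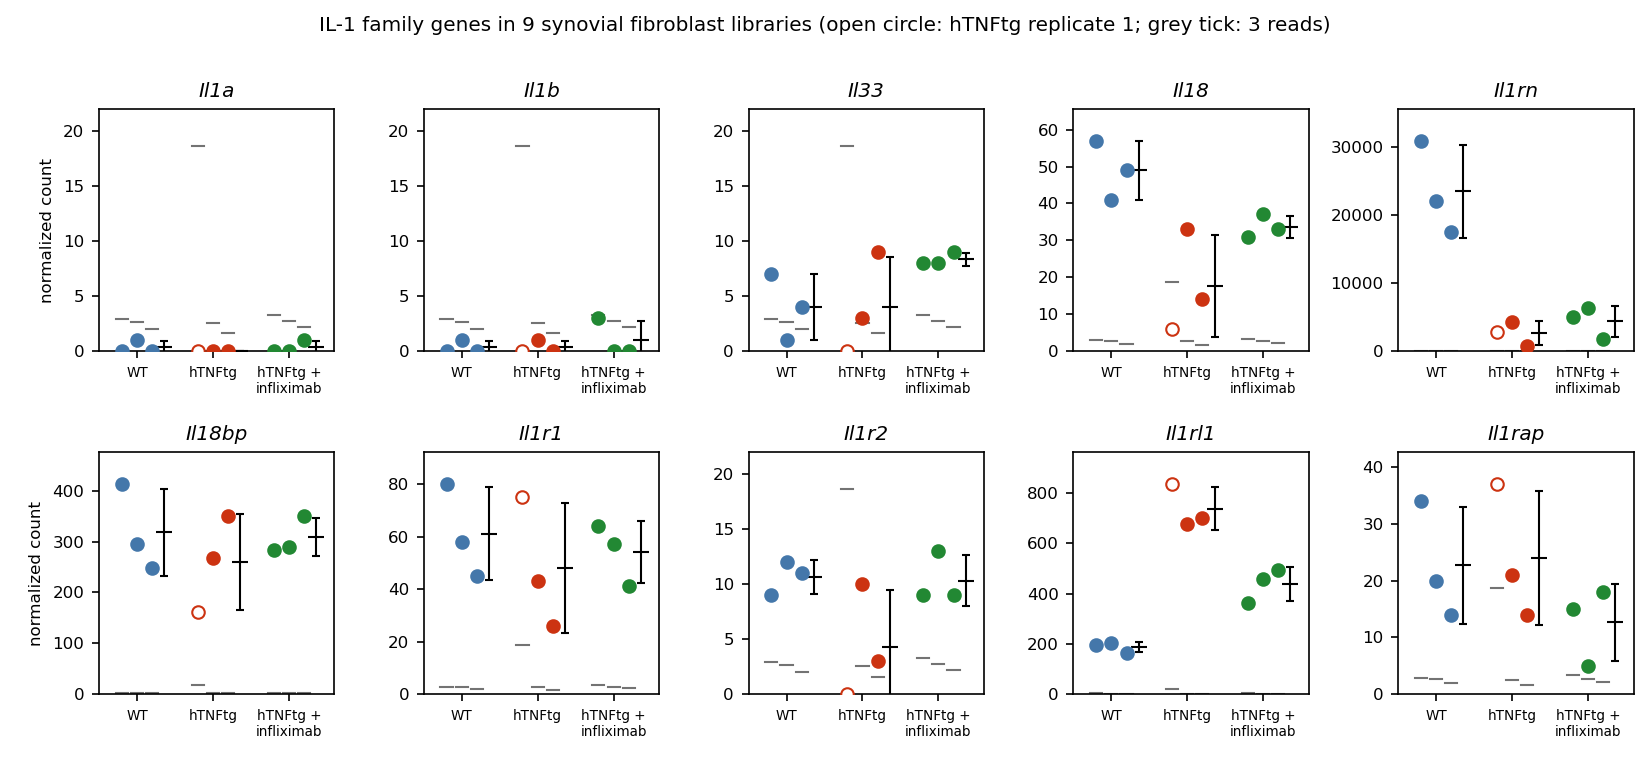
Normalized counts of the 10 IL-1 family genes (vertical axes, each from 0) in each library of WT, untreated hTNFtg and infliximab-treated hTNFtg SFs. Circles are libraries, the open circle is the shallow hTNFtg replicate 1, grey ticks mark 3 reads and black bars the mean ± SD (n = 3). Il1rn is at 17452 or more in WT and at 6260 or less in all other libraries, and Il1rl1 separates the 3 groups.

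Transcripts of the agonist ligands Il1a and Il1b were at the floor in all 9 libraries. Il1a was at 0 in 7 libraries and at 1 normalized count in WT replicate 2 and in infliximab replicate 3, a total of about 2 reads. Il1b was at 1 in WT replicate 2 and hTNFtg replicate 2, at 3 in infliximab replicate 1 and at 0 elsewhere, a total of about 5 reads. No group was above the floor, so no fold change is given or plotted for either ligand, and a level under 3 reads was not detectable at this depth. Il33 was low as well. It was at 7, 1 and 4 normalized counts in WT, at 0, 3 and 9 in hTNFtg and at 8, 8 and 9 in infliximab-treated SFs. The treated libraries were alike and lay above the WT libraries, and the hTNFtg libraries overlapped both. The separation from WT is slight, as the 8 in infliximab replicate 1 and the 7 in WT replicate 1 each rest on about 7 reads. The log2 fold change of Il33 in treated hTNFtg versus WT SFs was 1.11 ± 0.64 (SE, limma adjusted p = 0.528). Over the alternatives it ranged from 0.56 to 1.56, and it passed the study's cutoffs with array quality weights and without WT replicate 1. The 0 in hTNFtg replicate 1 allows up to 18.7 normalized counts. Floors cover counting error only, whereas the SEs and 95% intervals come from the spread between libraries.

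Il18 was the only ligand of the 4 with more than 10 normalized counts in a library. It stood at 57, 41 and 49 normalized counts in WT, at 6, 33 and 14 in hTNFtg and at 31, 37 and 33 in infliximab-treated SFs. All 3 hTNFtg libraries were below all WT libraries, and the 6 in hTNFtg replicate 1 is a single read. The mean was 49.0 ± 8.0 (SD, n = 3) in WT and 17.7 ± 13.9 in hTNFtg SFs, 2.77-fold lower, with a log2 fold change of -1.70 ± 0.60 (SE, limma unadjusted P = 0.0157, adjusted p = 0.40). Over the alternatives the adjusted p of Il18 ranged from 0.171 to 0.831. Without WT replicate 1 (-1.58, limma unadjusted P = 0.0767) or WT replicate 3 (-1.69, unadjusted P = 0.0599) the call was lost, as it was with array quality weights (-0.79, unadjusted P = 0.0923) and with the replicate block (-1.70, unadjusted P = 0.0562). Without the shallow hTNFtg replicate 1 it was kept at -1.13. With infliximab the mean was 33.7 ± 3.06, a log2 difference of 1.18 ± 0.62 from untreated hTNFtg SFs (95% interval -0.15 to 2.51, limma unadjusted P = 0.0785), and 0.28 to 1.75 over the alternatives. The treated libraries lay below all WT libraries, at a log2 fold change of -0.52 ± 0.26 (limma unadjusted P = 0.0792), and they overlapped the untreated hTNFtg libraries.

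The antagonist Il1rn was among the most abundant transcripts of WT SFs. It stood at 30966, 22047 and 17452 normalized counts in WT, at 2859, 4228 and 771 in hTNFtg and at 5001, 6260 and 1796 in infliximab-treated SFs. Every WT library was above every hTNFtg library, treated or not, while the treated and untreated hTNFtg libraries overlapped. In a 3′ library a transcript gives reads from its end whatever its length, and on the scale of normalized counts Il1rn ranked 5, 11 and 16 among all genes in WT SFs. Its ranks were 164, 117 and 1132 in untreated and 90, 60 and 335 in treated hTNFtg SFs. It made up 0.707%, 0.493% and 0.403% of the WT libraries, against 0.0160% to 0.103% of the hTNFtg and 0.0429% to 0.152% of the treated libraries.

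The mean of Il1rn was 23488 ± 6871 (SD, n = 3) in WT and 2619 ± 1741 in hTNFtg SFs, 8.97-fold lower. The log2 fold change was -3.44 ± 0.64 (SE, limma adjusted p = 0.0466) and kept its side of the study's cutoffs under all 16 alternatives, from -3.94 to -2.72, with an adjusted p between 7.7e-09 and 0.478. Leaving out any 1 of the 6 libraries raised the adjusted p above 0.05 (0.103 to 0.478), and infliximab-treated SFs without replicate 3, the library with liver genes, were at -2.03 relative to WT. In treated SFs the mean was 4352 ± 2302, 5.40-fold below WT, with a log2 fold change of -2.58 ± 0.45 (limma adjusted p = 0.0389; 7.2e-19 to 0.407 over the alternatives). Between treated and untreated hTNFtg SFs the means differed 1.66-fold, which is within the spread between libraries (log2 difference 0.86 ± 0.62, 95% interval -0.47 to 2.19, limma unadjusted P = 0.184). Without hTNFtg replicate 3 this difference was 0.14, and without hTNFtg replicate 2 it was 1.37. The libraries of a group differed widely for Il1rn, by 1.77-fold in WT, 5.48-fold in hTNFtg and 3.49-fold with infliximab. Il1rn is also made by myeloid and epithelial cells. The summed myeloid markers were lowest in WT, where Il1rn was highest. The sum of the 7 epithelial markers was 18 to 31 in WT, 12 to 27 in hTNFtg and 30 to 33 in treated SFs. Krt10, the highest of the 7, was at 3 to 20 and Cdh1 at 0 to 21, while Krt5 and Krt14 were at 1 or less in every library. The part of these cells in the level of Il1rn was not tested, and in bulk samples fewer cells of a type and less RNA per cell cannot be told apart.

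The Il1rn gene has 4 annotated protein-coding transcripts, which start at either of the promoters shown above and encode secreted and intracellular forms of IL-1Ra. They end between positions 24349457 and 24351494 of chromosome 2, and the tables hold their sum. No other gene ends within 1000 bases of the 3′ end of Il1rn or overlaps it in the files' annotation.

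The other antagonist, Il18bp, had nearly the same values as a neighboring gene. Il18bp was listed at 413, 295 and 247 normalized counts in WT, at 162, 267 and 351 in hTNFtg and at 284, 289 and 351 in infliximab-treated SFs. The groups overlapped in all comparisons, with log2 fold changes of -0.33 ± 0.35 in hTNFtg versus WT, 0.31 ± 0.32 in treated versus untreated and -0.02 ± 0.22 in treated hTNFtg versus WT SFs (SE, limma adjusted p = 0.726, 0.803 and 0.994). Il18bp lies tail to tail with Numa1 (chr7:101934111-102014964, plus strand), a gene of the mitotic spindle, and the last 80 bases of each overlap. Numa1 was listed at 444, 323 and 263 in WT, at 181, 284 and 359 in hTNFtg and at 317, 324 and 385 in treated SFs. Numa1 was above Il18bp by 8 to 35 normalized counts in each library, a ratio of 1.02 to 1.12. How reads in the overlap were assigned is not given in the sources used here and was not tested, so the level of Il18bp is uncertain.

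**Figure D2:**
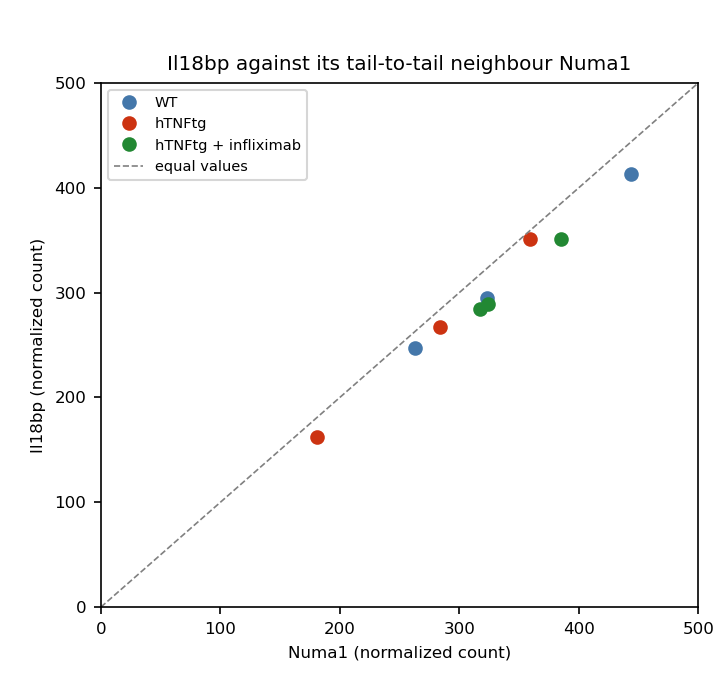
Normalized count of Il18bp (vertical axis) against that of Numa1 (horizontal axis), 1 point per library, colored by group, with a dashed line at equal values. All 9 libraries lie close to and below the line, at ratios of Numa1 to Il18bp of 1.02 to 1.12.

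Among the receptors, only Il1rl1 was called, in both comparisons with WT SFs. It stood at 195, 202 and 163 normalized counts in WT, at 835, 676 and 699 in hTNFtg and at 361, 456 and 495 in infliximab-treated SFs. The 3 groups were fully separated, with the treated libraries in between. The mean rose from 186.7 ± 20.8 (SD, n = 3) in WT to 737 ± 85.9 in hTNFtg SFs, 3.95-fold, with a log2 fold change of 1.97 ± 0.27 (SE, limma adjusted p = 0.0115). Under the 16 alternatives it stayed between 1.86 and 2.03 and was always called, with an adjusted p of 1.1e-04 to 0.478. Of the fits that left out a library, only the one without hTNFtg replicate 3 kept the adjusted p under 0.05 (0.0432). In hTNFtg replicate 1 the value of 835 rests on 134 reads, and without this library the fold change was 1.88.

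In infliximab-treated SFs the mean of Il1rl1 was 437 ± 68.9 (SD, n = 3), 1.68-fold lower than in untreated hTNFtg SFs. The log2 fold change was -0.76 ± 0.28 (95% interval -1.36 to -0.16, limma unadjusted P = 0.0172, adjusted p = 0.803, range over the alternatives 0.106 to 0.914), under the size that the study's cutoffs require. It was lower in 3 of 3 treated libraries, and the limma unadjusted P rose to 0.0641 without infliximab replicate 1. With edgeR the log2 fold change was -0.70 and the unadjusted P was 0.0542. Treated SFs were 2.34-fold above WT, at a log2 fold change of 1.22 ± 0.19 (limma adjusted p = 0.0286; 2.9e-05 to 0.407 over the alternatives). ST2 is also found on mast cells and on T and innate lymphoid cells. The summed myeloid markers, too, were above WT (214 to 800) in hTNFtg (3467 to 7939) and in treated SFs (2310 to 4777), the latter ranges overlapping, and their part in the level of Il1rl1 was not tested. The mast cell genes Cpa3, Tpsb2, Kit and Fcer1a and the T cell genes Cd3e and Cd8a were at 0 in all 9 libraries. Some other markers of these cells were present, with Gata2 at 11 to 50 and Il2ra at 0 to 23. Gata3 was at 0 to 18, Cd3d at 4 to 14 and Cd4 at 0 to 14. The sum of the 9 mast cell markers was 29 to 54 in WT, 12 to 37 in hTNFtg and 14 to 22 in treated SFs, and that of the 10 lymphoid markers was 15 to 40, 12 to 33 and 34 to 35.

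Il1rl1 encodes both the membrane receptor ST2L and the soluble decoy sST2, whose transcripts differ at their 3′ ends. The 5 annotated protein-coding transcripts end at 5 positions spread over 24008 bases of chromosome 1, from 40441407 to 40465415. The tables give 1 value per gene, so the forms could not be told apart, nor could use of the distal and proximal promoters.

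The signaling receptor Il1r1 was detected in every library and showed no difference beyond the replicate spread. Its normalized counts were 80, 58 and 45 in WT, 75, 43 and 26 in hTNFtg and 64, 57 and 41 in infliximab-treated SFs. The 3 groups overlapped throughout, and the 75 in hTNFtg replicate 1 rests on 12 reads. The log2 fold change was -0.43 ± 0.45 in hTNFtg versus WT SFs (95% interval -1.42 to 0.57, limma adjusted p = 0.726) and 0.27 ± 0.44 in treated versus untreated SFs (-0.68 to 1.22, adjusted p = 0.867). In treated hTNFtg versus WT SFs it was -0.16 ± 0.29 (-0.81 to 0.50, adjusted p = 0.800). A change of the size required for a call, 1 on the log2 scale, lay inside the first 2 of these intervals.

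The coreceptor Il1rap was at 34, 20 and 14 normalized counts in WT, 37, 21 and 14 in untreated hTNFtg and 15, 5 and 18 in treated SFs. The ranges of WT and untreated hTNFtg SFs were almost the same, and 2 of 3 treated libraries lay within them. The log2 fold change was 0.06 ± 0.58 in hTNFtg versus WT SFs and -0.93 ± 0.68 in treated versus untreated SFs (limma adjusted p = 0.998 and 0.803). Il1rap is needed for signaling by IL-1 and IL-33 alike.

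The decoy receptor Il1r2 was near the floor. It stood at 9, 12 and 11 normalized counts in WT, at 0, 10 and 3 in hTNFtg and at 9, 13 and 9 in treated SFs. The WT and treated libraries were alike, and the hTNFtg libraries overlapped both. The log2 fold change was -1.72 ± 0.97 in hTNFtg versus WT SFs (limma unadjusted P = 0.104) and 1.66 ± 0.99 in treated versus untreated SFs (unadjusted P = 0.117). The 0 in hTNFtg replicate 1 allows up to 18.7 normalized counts, which is above all values in WT. Without this library the differences were -0.81 and 0.75 (limma unadjusted P = 0.211 and 0.252), and without hTNFtg replicate 2 both were called (-2.54 and 2.48). They ranged from -2.54 to -0.57 and from 0.40 to 2.48 over the alternatives.

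**Figure D3:**
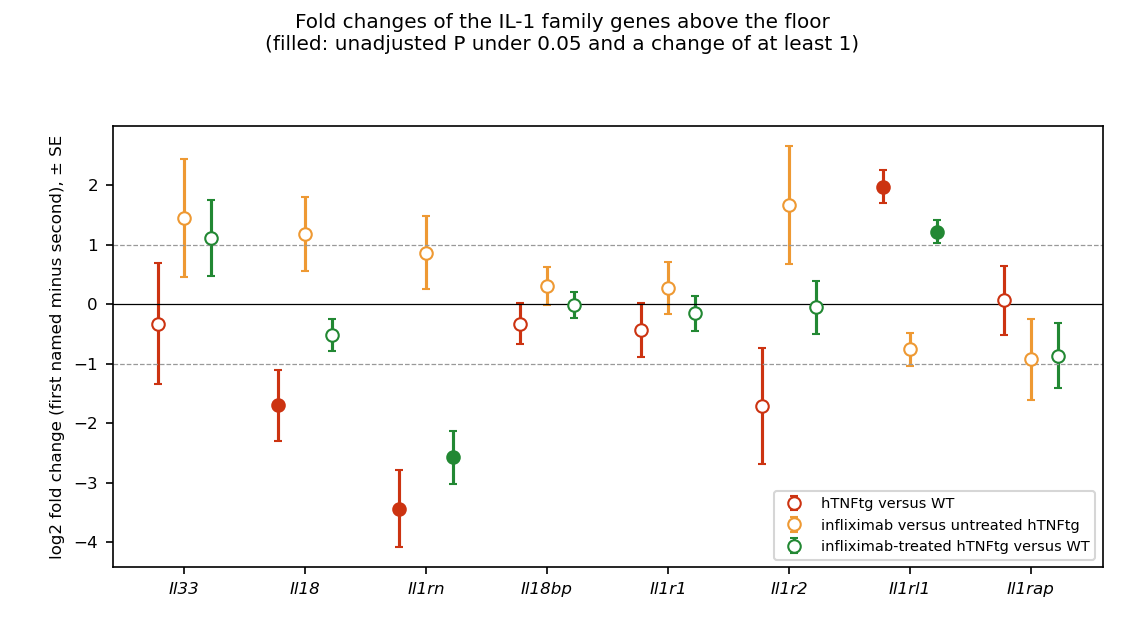
Log2 fold change ± SE from limma (vertical axis) of the 8 members above the floor, for the 3 comparisons. Filled points passed the study's cutoffs, and dashed lines mark a change of 1 in either direction. Il1rn is lowest in both comparisons with WT SFs (-3.44 and -2.58), Il1rl1 is highest (1.97 and 1.22), and no point of the infliximab comparison is filled.

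For each member with a mean of at least 20 over the 9 libraries, the genes of most similar pattern were taken by Pearson's r of log2(normalized count + 1) among 11712 other genes. The 9 libraries share their groups, so these values describe the set only. The pattern of Il1rn was nearest to Chst15 (r = 0.99), Pts (0.99) and Gm28875 (0.99), and that of Il18 to Echdc2 (0.99), Alpl (0.97) and Impa2 (0.97). Il1rl1 was nearest to the chemokine Ccl20 (0.99), Ppm1h (0.99) and the chemokine Ccl5 (0.98). Il1r1 was nearest to Lsm14a (0.99), Rab1a (0.97) and Capn7 (0.97), and Il18bp to Numa1 (0.99), Ddb1 (0.99) and Hist2h2aa1 (0.94).

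Most other family genes were at or near 0. The tables held 11 further ligands and receptors, the IL-36 genes under their older names. By limma 0 of 8 tested were called in hTNFtg versus WT SFs and 0 of 7 in treated versus untreated SFs. An unadjusted P under 0.05 in limma was found for 0 and 1 of them, against 2201 of 28522 and 1026 of 28540 genes tested. By edgeR 0 had an adjusted p under 0.05 in each, against 917 and 165 genes. Over all genes 3.35% were raised and 3.04% lowered in the first of these comparisons, and 1.49% and 0.936% in the second, so that a count of 0 among so few genes is near the background. A single gene was called in hTNFtg versus WT SFs with array quality weights, robust eBayes, all 9 libraries, edgeR or without hTNFtg replicate 1, and in treated versus untreated SFs without hTNFtg replicate 2 or 3. In treated hTNFtg versus WT SFs 1 of 7 was raised, against 3.86% of all genes. This was Il18rap, the accessory chain of the IL-18 receptor, with 24.7 ± 2.08 against 9.67 ± 4.51 normalized counts (log2 fold change 1.36 ± 0.45, limma adjusted p = 0.250), and without WT replicate 3 it was not called. Il1f6, Il1f8, Il1f9, Il1f10, Sigirr and the Il1rapl genes did not exceed 4 in any library, and Il1f5 was at 0. The median log2 fold change was -0.33, 0.27 and 0.09 in the order of the comparisons over the 5, 4 and 4 genes above the floor in a group, and 0 in each over all those tested with genes at the floor set to their bound.

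Of 18 genes for receptor-proximal signaling, 1 was raised and 1 lowered in hTNFtg versus WT SFs, close to the shares over all genes (3.35% and 3.04%), with a median log2 fold change of -0.08 over the list and -0.0463 over all genes above the floor in a group. By edgeR 1 of the 18 had an adjusted p under 0.05, against 917 of 28522 genes tested. Irak2, a kinase recruited through MyD88, was at 43.7 ± 9.50 against 20.3 ± 3.06 normalized counts (1.05 ± 0.44, limma adjusted p = 0.583). Peli2, a ubiquitin ligase that acts on IRAK kinases, was at 42.3 ± 22.3 against 161 ± 71.8 (-1.93 ± 0.44, limma adjusted p = 0.101). In treated hTNFtg versus WT SFs 1 of 18 was lowered and 0 raised, against 2.95% and 3.86% of all genes. An unadjusted P under 0.05 in limma was found for 4 of 18, against 3363 of 28243 genes tested. By edgeR 1 of 18 had an adjusted p under 0.05, against 1320 genes. The gene lowered was again Peli2 (-1.31 ± 0.47, limma adjusted p = 0.292). In treated versus untreated SFs limma called 0 of 18, near the 1.49% raised and 0.936% lowered over all genes. Of the list, 0 had an unadjusted P under 0.05 in limma and 0 an adjusted p under 0.05 by edgeR, against 1026 and 165 of 28540 genes tested. The call of Irak2 was kept under 11 of 16 alternatives and lost with a pseudocount of 5, with robust eBayes and without WT replicate 2, WT replicate 3 or hTNFtg replicate 2, and the later call of Peli2 without WT replicate 1, WT replicate 2 or infliximab replicate 3.

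Genes for inflammasomes and for cleavage of the ligands were raised in hTNFtg versus WT SFs in 5 of 16 cases, against 3.35% of all genes, and no other gene of the list had an unadjusted P under 0.05. An adjusted p under 0.05 was found for 0 of the 16 by limma and 3 by edgeR, against 137 and 917 of 28522 genes tested. The median log2 fold change was 0.58 over the 14 genes above the floor in a group, and 0.46 over the 16 tested with genes at the floor set to their bound. Casp1, the protease that matures IL-1β and IL-18, was at 60.0 ± 45.6 normalized counts in hTNFtg and at 5.33 ± 4.93 in WT SFs (3.28 ± 0.76, limma adjusted p = 0.106). The shallow hTNFtg replicate 1 had the highest value, 112 from 18 reads, and without it the mean in hTNFtg SFs was 34.0. Casp4 was at 79.0 ± 9.17 against 36.7 ± 3.79 (1.08 ± 0.35) and Gsdmd, which forms the pores of pyroptosis, at 41.0 ± 3.61 against 16.3 ± 2.89 (1.29 ± 0.46), with limma adjusted p of 0.321 and 0.412. The sensors Aim2 and Nlrp3 were also raised, from WT groups at the floor, with only 2 reads each in hTNFtg replicate 1. Over the other 2 hTNFtg libraries they were at least 8.32-fold and 3.37-fold higher against a floor of 3 reads per library. With infliximab 1 of 15 was lowered, against 0.936% of all genes. This was Casp4 (-1.02 ± 0.42, limma adjusted p = 0.803), a call kept under 9 of 16 alternatives and lost with a pseudocount of 5, array quality weights, edgeR, and without hTNFtg replicate 1 or 2 or infliximab replicate 2 or 3. In treated hTNFtg versus WT SFs 4 of 16 were raised (Aim2, Casp1, Gsdmd and Nlrp3), against 3.86% of all genes, with Casp1 at 2.11 ± 0.73 and Gsdmd at 1.23 ± 0.33, and Casp1 was not called with array quality weights or without WT replicate 1, WT replicate 3 or infliximab replicate 3. The summed myeloid markers were higher in the same libraries, at 3467 to 7939 in hTNFtg SFs against 214 to 800 in WT, as were the summed neutrophil markers (99 to 191 against 46 to 57). Both sums were above WT in treated SFs as well, and their part in these differences was not tested.

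Genes inducible by IL-1 and TNF had the highest share of calls among the 4 related lists in each comparison. In hTNFtg versus WT SFs 17 of 23 were raised, where 3.35% of all genes tested were, and no other had an unadjusted P under 0.05. The median difference was 2.29 on the log2 scale over the 22 genes above the floor in a group. An adjusted p under 0.05 was found for 8 genes by limma and 14 by edgeR, against 137 and 917 of 28522 genes tested. Saa3, an acute-phase protein, was at 3601 ± 1440 against 19.3 ± 4.04 normalized counts (7.40 ± 0.36, limma adjusted p = 7.1e-06), Ccl20 at 928 ± 443 against 12.3 ± 2.52 (6.04 ± 0.37, 3.8e-05) and the matrix protease Mmp3 at 3768 ± 518 against 124 ± 29.2 (4.94 ± 0.31, 3.8e-05). Mmp9 (4.35 ± 1.48) and Cxcl2 (3.64 ± 1.01) were called with limma adjusted p of 0.373 and 0.210. Tnfaip3 was raised from a WT group at the floor and was at least 11.2-fold higher against 3 reads per library (limma adjusted p = 0.124), or 6.93-fold without hTNFtg replicate 1, whose value of 50 rests on 8 reads. The call of Mmp9, which spanned 5 to 554 in WT and 143 to 4533 in hTNFtg SFs, was lost with robust eBayes, with the replicate block and without WT replicate 1, WT replicate 3 or hTNFtg replicate 3. With infliximab 6 of 23 were lowered, against 0.936% of all genes, namely Saa3 (-2.75 ± 0.41), Ccl20 (-2.53 ± 0.33), Mmp3 (-2.18 ± 0.33), Tnfaip3 (-1.52 ± 0.69), Ccl7 (-1.32 ± 0.32) and Icam1 (-1.04 ± 0.32), with limma adjusted p of 0.0992 to 0.803 and a median of -0.77 over the same 22 genes. By edgeR 4 of 23 had an adjusted p under 0.05, against 165 of 28540 genes tested. Saa3, Ccl20, Mmp3 and Ccl7 were called under all 16 alternatives, Icam1 under 12 and Tnfaip3 under 7. Icam1 overlaps an antisense gene by 511 bases at its 3′ end, and the ratio of their values was 1 to 1.16 over the libraries, so that the level of Icam1 is uncertain. Icam1 was not called with a pseudocount of 5, with array quality weights or without hTNFtg replicate 3 or infliximab replicate 3. Tnfaip3 was not called with a pseudocount of 5, quantile normalization, array quality weights or the fit to all 9 libraries, nor when a library other than hTNFtg replicate 2 was left out. In treated hTNFtg versus WT SFs 13 of 23 were raised and 1 lowered, against 3.86% and 2.95% of all genes, with a median of 1.38. The largest were Saa3 (4.65 ± 0.33), Ccl20 (3.51 ± 0.27), Mmp9 (3.36 ± 1.40), Mmp3 (2.75 ± 0.24), Ccl2 (2.46 ± 0.31) and Ptgs2 (2.34 ± 0.42), and the gene lowered was Lcn2, a target of IL-1 and IL-17, at 23.3 ± 11.7 against 75.0 ± 41.0 (-1.59 ± 0.56). Of the 23 genes, 6 by limma and 14 by edgeR had an adjusted p under 0.05, against 209 and 1320 of 28243 genes tested. Lcn2 and Mmp9 were called under 9 and 8 of the 16 alternatives, and both calls were lost with array quality weights and with the replicate block. Lcn2 was also not called with all 9 libraries fitted together or without WT replicate 1 or 3 or infliximab replicate 1 or 2. Mmp9 was also not called with robust eBayes or when a library other than WT replicate 2 was left out. The summed myeloid markers, at 214 to 800 in WT, 3467 to 7939 in hTNFtg and 2310 to 4777 in treated SFs, were above WT in both hTNFtg groups, which overlapped, as were the summed neutrophil markers (46 to 57, 99 to 191 and 97 to 114), and their part in these differences was not tested. The genes of this list answer to TNF as well as to IL-1, and the part of either in these differences was not tested. The ligands Il1a and Il1b were at the floor in the same libraries.

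**Figure D4:**
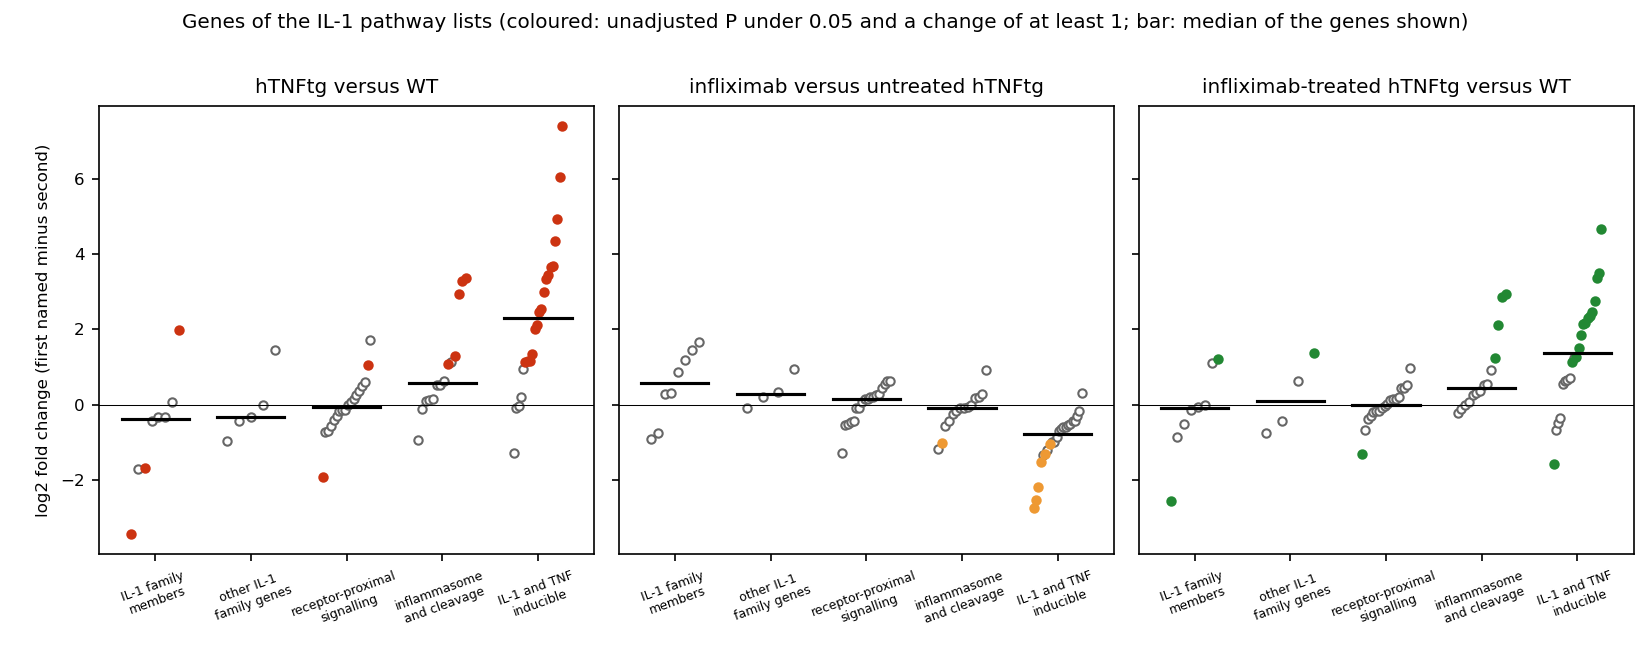
Log2 fold change from limma (vertical axis) of each gene of the IL-1 family and of 4 related lists that was above the floor in a group compared, in 1 panel per comparison. Colored points passed the study's cutoffs, open points did not, and bars are medians of the genes shown. The inducible genes have medians of 2.29, -0.77 and 1.38, and the medians of the 8 IL-1 family members shown are -0.38, 0.59 and -0.10.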

How the data were processed

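Libraries of SFs were made with the QuantSeq 3′ kit and sequenced on an Ion Proton. The authors mapped reads to mm10 with TopHat2, then Bowtie2, counted reads per gene with GenomicRanges and ran DESeq through metaseqR, versions not given in the sources used here. The values in 8 libraries are a score, counts that the authors normalized and rounded. In hTNFtg replicate 1 the deposited signal is whole reads times a factor (100% of low values are whole multiples of it), and it was treated like the others. Another 24 per-sample columns over both tables (log2 values and an rpgm form) and the authors' own fold changes and p-values were not used. The 3 untreated hTNFtg libraries had equal values in both tables and entered once. Dividing by what 1 read is worth, estimated from gaps in the rounded values and tested on simulated data, gave approximate reads.

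Groups of 3 were compared with limma 3.58.1 (lmFit, eBayes with trend, R 4.3.3) on log2(normalized count + 1) over all genes detected in any of the 6 libraries compared, with Benjamini-Hochberg adjustment over all of them. The floor was 3 reads per library. Alternatives were pseudocounts of 5 and 0.5, a mean of at least 10, quantile normalization, median-ratio rescaling, array quality weights, robust eBayes, a replicate block, a fit to all 9 libraries, edgeR 4.0.16 on approximate reads and leaving out each library. P-values measure the spread between these libraries. Members and lists were chosen with earlier results of these data known. All 10 members were named, and of each list up to 6 genes per comparison that passed the cutoffs with a mean of at least 10. Aim2, Nlrp3, Lcn2 and the further family genes were named after their values were seen.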

Additional observations from a re-analysis of the deposited data

How the results depend on the processing

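The number of members called stayed between 2 and 3 under the 10 alternative settings for hTNFtg versus WT SFs and for treated hTNFtg versus WT SFs, and between 2 and 4 and between 2 and 3 when a library was left out. For infliximab-treated versus untreated hTNFtg SFs it was 0 except for 1 (Il18, 1.18) with all 9 libraries fitted together, and ranged from 0 to 2 when a library was left out: Il18 and Il1r2 passed without hTNFtg replicate 2, and Il33 without hTNFtg replicate 3. Of 379 fold changes of single members under the alternatives, 351 kept their direction and side of the cutoffs, 4 lost a call, 7 gained one and 17 changed sign. The 4 lost calls were all those of Il18 in hTNFtg versus WT SFs, under array quality weights (-0.79), under the replicate block and without WT replicate 1 or 3. Signs changed only for members that were not called. In hTNFtg versus WT SFs, Il33 turned to 0.20 with array quality weights and 0.42 with edgeR, and Il1rap to -0.12 with edgeR. In treated hTNFtg versus WT SFs, Il18bp turned to 0.00215 with array quality weights. When a library was left out, the log2 fold change ranged from -1.11 to 0.55 for Il33 and from -0.29 to 0.39 for Il1rap in hTNFtg versus WT SFs, from -0.10 to 0.65 for Il1r1 in treated versus untreated SFs, and from -0.354 to 0.0545 for Il1r1, -0.214 to 0.0303 for Il1r2 and -0.187 to 0.183 for Il18bp in treated hTNFtg versus WT SFs. The cause was not tested. Counts of called inflammasome genes ranged from 3 to 7, 0 to 2 and 2 to 4 in the order of the comparisons, and those of inducible genes from 14 to 20, 4 to 9 and 10 to 14. Calls by adjusted p were less stable, with 137 genes in hTNFtg versus WT SFs and 1 to 44 when a library was left out, and 209 and 0 to 1 in treated hTNFtg versus WT SFs. Under the 10 alternative settings they ranged from 0 with the replicate block to 1004 with array quality weights in hTNFtg versus WT SFs. In treated hTNFtg versus WT SFs the range was from 0 with the block to 1320 with edgeR.

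The replicate numbers were not taken to pair the libraries. Correlations of same-numbered deviations from the group means were 0.29, -0.14 and 0.35 between WT and hTNFtg SFs, 0.07, 0.20 and 0.27 between untreated and treated hTNFtg SFs, and 0.10, -0.15 and 0.01 between WT and treated SFs. Infliximab replicate 1 correlated more with hTNFtg replicate 2 (0.13) than with its own number. With the replicate block the genes called numbered 1659 against 1823, 605 against 693 and 1698 against 1923 without it, and Il18 was not called in hTNFtg versus WT SFs (-1.70, limma unadjusted P = 0.0562). Under the block 0 genes had a limma adjusted p under 0.05 in each comparison. Those of Il1rn and Il1rl1 in hTNFtg versus WT SFs were both 0.478. With the block Il1rn had an unadjusted P of 0.0272 in treated versus untreated SFs at 0.86, under the size required. Depth limits the low members, since 3 reads stand at 18.7 normalized counts in hTNFtg replicate 1, above all values of Il1a, Il1b, Il33 and Il1r2.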

Other observations

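The near-equal values of Il18bp and Numa1 were seen in many other pairs. Pairs of genes on opposite strands that end toward each other, with a mean of at least 20 normalized counts each, were taken from the whole table. Their means over the 9 libraries were within 1.25-fold of each other in 409 of 717 overlapping pairs (57.0%), in 193 of 328 pairs whose ends lay 0 to 500 bases apart (58.8%) and in 61 of 148 pairs 501 to 1000 bases apart (41.2%). At 1001 to 3000 bases it was 38 of 303 pairs (12.5%). The way reads were assigned at gene ends, and whether strand was used, is not given in the sources used here, and the cause was not tested. Of the 10 members, only Il18bp has another gene ending within 1000 bases of its own 3′ end. Genes overlapping Il1a, Il1b, Il18, Il1r1, Il1r2 and Il1rap had a mean of 1.22 normalized counts or less.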
